A study of Homo sapiens with 24 samples.

Results

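BRG1, encoded by SMARCA4, is one of the 2 alternative ATPases of the SWI/SNF chromatin remodelling complex. Most of its called sites inside gene introns met no called peak of the other subunits profiled. These sites, the BRG1-only intron peaks, were chosen by peak type, width and overlap: they are the peaks of the BRG1 list that the authors annotated as intron, that were under 3000 bp wide and that shared no base with a peak of BRM, the other ATPase, or of SNF5, a core subunit. There were 15907 of them among the 51504 BRG1 peaks, and among 80150 peaks in the 3 deposited lists. They lay in RWPE1, a human prostate epithelial cell line of non-cancerous origin immortalised with a papillomavirus. A lentivirus carried SCHLAP1, a long noncoding RNA known from aggressive prostate tumours, into the cells, which were kept under blasticidin. The chromatin of these SCHLAP1 cells was cut with MNase before BRG1, BRM and SNF5 were precipitated. The series holds 24 samples in 12 groups of 2, with histone marks and inputs also from cells that carried LACZ. Those marks and inputs were left out here. The labels give subunit libraries for SCHLAP1 cells only, so the lists cannot show an effect of SCHLAP1. Each subunit has 1 list of positions without read counts, so sequencing depth is unknown. A spread between replicates could not be computed, and no test was made. Peaks are not replicates. The intervals given are exact binomial ones at 95% confidence and cover counting error only. The membership rests on called peaks: a site without a BRM or SNF5 peak is one where none was called, not one shown to lack the protein.

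SWI/SNF uses ATP to slide or evict nucleosomes, and it opens promoters and enhancers to transcription factors. Introns of long genes hold many enhancers, which in epithelial cells are often bound by AP-1, a dimer of FOS and JUN family proteins that is known to recruit SWI/SNF. The cells bore BRG1 peaks at defining genes of basal prostate epithelium. KRT5, KRT14, ITGB4 and COL17A1 each had a BRG1 promoter peak, as did 11339 of all 19974 protein-coding genes. TP63 had no promoter peak and held 15 BRG1-only intron peaks. KLK2 and KLK3, defining genes of luminal cells, were named by no BRG1 peak, while KRT8 and KRT18, also luminal, were named by 8 and 2, with a promoter peak at KRT8. Of defining genes of other tissues, CD2, ALB, TTR, SNAP25 and DCX were named by none, as were APOA1 and ELAVL4. PTPRC, CD3E and AHSG were named by 1 each, CD14 by 2 and SYT1 by 4, with a promoter peak at CD14 and at SYT1.

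The sequences under these peaks could be read where a RefSeq promoter window, 250 bases before to 50 bases after a gene start (GRCh38.p14), lay wholly inside one. That held for 51 windows in 50 peaks, mostly at starts of noncoding genes (39 lncRNA windows and 12 protein-coding ones), so they are a small and selected sample of the 15907. The AP-1 motif TGACTCA, searched on both strands (TGAGTCA on the other), was in 16 of the 51 windows (31.4%, interval 19.1 to 45.9). It was in 4.95% of all 35116 windows, in 5.46% of the 19981 windows that no BRG1 peak touched (5.14 to 5.78) and in 3.84% of the 9870 windows inside BRG1 promoter peaks (3.47 to 4.24). The following 10 sequences show it with 24 bases on either side, for every window where this whole stretch lay before the gene start, with the motif in capitals (hg38 positions).
LOC124903872, chr1:21261955-21262009, plus strand: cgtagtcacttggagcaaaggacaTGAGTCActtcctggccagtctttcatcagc
LOC105378719, chr1:51622577-51622631, minus strand: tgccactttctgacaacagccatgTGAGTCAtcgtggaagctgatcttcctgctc
LOC124906088, chr2:168211319-168211373, plus strand: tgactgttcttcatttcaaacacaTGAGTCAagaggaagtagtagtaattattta
LOC124901073, chr5:135456357-135456411, plus strand: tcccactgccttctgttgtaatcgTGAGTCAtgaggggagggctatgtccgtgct
LOC105375208, chr7:28037405-28037459, plus strand: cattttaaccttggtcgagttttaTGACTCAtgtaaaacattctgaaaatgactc
LOC124902257, chr9:115157308-115157362, plus strand: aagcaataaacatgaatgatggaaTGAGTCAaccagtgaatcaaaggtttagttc
LOC105369366, chr11:69166672-69166726, plus strand: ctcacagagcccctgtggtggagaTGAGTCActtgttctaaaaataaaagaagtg
LOC105370117, chr13:24502923-24502977, plus strand: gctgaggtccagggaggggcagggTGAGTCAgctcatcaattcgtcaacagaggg
SYT16, chr14:61927625-61927679, plus strand: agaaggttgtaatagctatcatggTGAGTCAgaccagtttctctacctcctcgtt
LOC124904076, chr17:80827013-80827067, minus strand: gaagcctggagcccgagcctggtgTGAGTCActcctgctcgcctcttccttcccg

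LOC124903872 lay in ECE1, an endothelin-converting protease, LOC105378719 in OSBPL9, an oxysterol-binding protein, and LOC124906088 in STK39, a kinase of ion transport. LOC105375208 lay in JAZF1, a transcriptional cofactor, and held 3 matches in 1 window. LOC105370117 lay in PARP4, a poly-ADP-ribosyltransferase, LOC124904076 in RPTOR, a subunit of the growth kinase complex mTORC1, and SYT16, a synaptotagmin family gene, had an internal start of its own there. Over all 18 matches in the 16 windows the motif lay 3 to 362 bases from the middle of its peak, with a median of 164, and 12 lay within 200 bases. At LOC105369366 it lay 3 bases from the middle of a peak of 722 bp.

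Among these windows at RefSeq starts, the AP-1 share did not differ clearly between kinds of BRG1 peak that the authors annotated as intron or distal. Windows inside BRG1 intron peaks that met BRM or SNF5 held the motif in 15 of 88 cases (17.0%, 9.87 to 26.6), and windows inside BRG1-only distal peaks in 23 of 80 (28.8%, 19.2 to 40.0), and both intervals overlap that of the BRG1-only intron peaks. Base composition moved with it: the median GC content was 45.7% in the 51 windows and 67.0% in those inside promoter peaks. Among windows of 38.7 to 54.3% GC, the motif was in 10 of 25 inside BRG1-only intron peaks (40.0%, 21.1 to 61.3). It was in 7 of 27 inside intron peaks that met BRM or SNF5 (25.9%, 11.1 to 46.3), and these intervals overlap. In the same band it was in 12.6% of 846 inside promoter peaks and in 7.35% of 8653 that no BRG1 peak touched. AP-1 was 1 of 10 motifs searched, all on both strands. Of the others, the TEAD core GGAATG was in 21.6% of the 51 windows and 14.0% of all windows, and the RUNX core TGTGGT in 11.8% and 13.1%. The forkhead motif TGTTTAC was in 7.84% and 3.42%, and the control word GCATGC in 3.92% and 7.22%. The SP/KLF box GGGCGG was in 17.6%, against 45.0% of all windows and 73.5% inside promoter peaks. The E-box CACGTG was in 3.92% and 7.26%, and the CTCF core AGGGGGC in 3.92% and 14.4%. The ETS motif CCGGAAGT was in 0 of 51 (upper limit of the interval 6.98%) and 4.14% of all, and the grainyhead motif AACCGGTT in 0 of 51 and 0.134%.

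**Figure D1:**
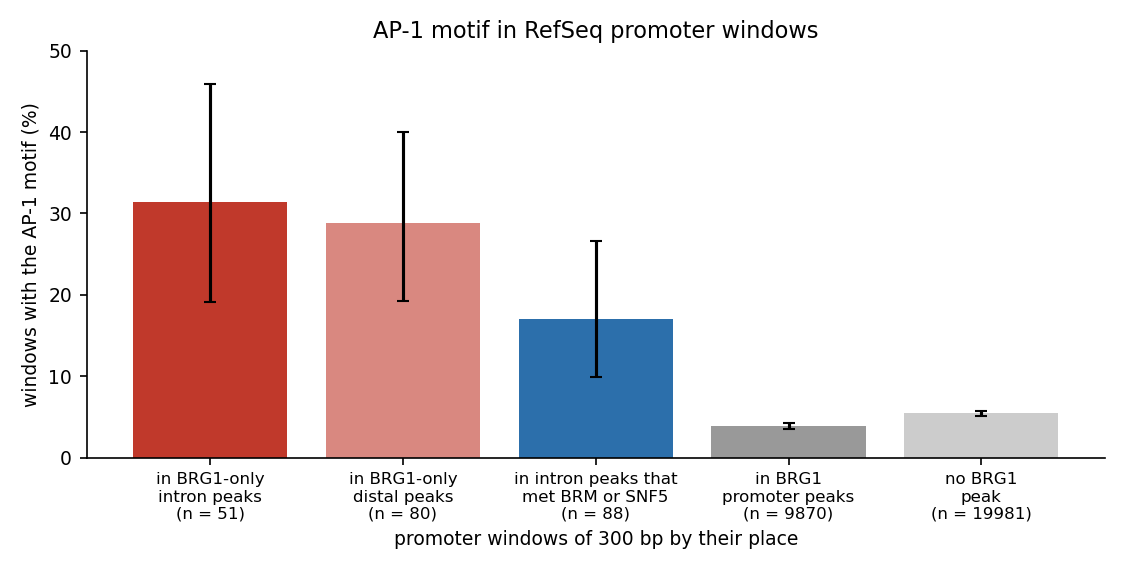
Share of RefSeq promoter windows of 300 bp that hold the AP-1 motif (vertical axis, percent), by where the window lies; bars are shares and lines are 95% exact binomial intervals. Windows inside BRG1-only intron peaks hold it in 31.4% of cases and windows without a BRG1 peak in 5.46%.

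CG dinucleotides were few in most of these windows. The median was 3 CG per window inside BRG1-only intron peaks, 9 inside intron peaks that met BRM or SNF5, and 28 inside BRG1 promoter peaks. A CG-rich and a CG-poor case are shown by 2 internal starts of protein-coding genes, with the 250 bases before each. PDGFRA, a receptor of platelet-derived growth factor, has a start 4.67 kb inside the gene under a BRG1-only peak of 696 bp that lay 222 bp from a BRM peak, with 25 CG before it and SP/KLF boxes in capitals. SYT16 has one 116 kb inside the gene under a peak of 1147 bp, with 1 CG and the AP-1 and TEAD motifs in capitals.
PDGFRA, chr4:54233710-54233959, plus strand: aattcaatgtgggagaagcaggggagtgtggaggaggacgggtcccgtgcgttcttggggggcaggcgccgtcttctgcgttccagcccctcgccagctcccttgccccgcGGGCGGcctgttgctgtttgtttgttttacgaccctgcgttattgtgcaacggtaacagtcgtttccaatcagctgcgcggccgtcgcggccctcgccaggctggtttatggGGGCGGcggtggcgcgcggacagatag
SYT16, chr14:61927445-61927694, plus strand: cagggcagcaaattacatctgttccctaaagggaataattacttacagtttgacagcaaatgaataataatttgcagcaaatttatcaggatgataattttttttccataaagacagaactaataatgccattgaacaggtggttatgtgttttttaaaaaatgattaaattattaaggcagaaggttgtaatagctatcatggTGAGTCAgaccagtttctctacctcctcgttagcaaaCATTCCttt

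These internal starts were an exception. Only 81 of the 15383 BRG1-only intron peaks outside chromosome 8, whose starts were not used here, held a RefSeq gene start. Of the 3284 intron peaks that met BRM or SNF5, 101 did. The starts were those with a promoter window, which some genes lack. Among the starts under BRG1-only peaks were those of SRF, the serum response factor, whose peak of 1131 bp lay 37 bp from a BRM peak, and TET1, a DNA demethylase, whose peak of 530 bp lay 72068 bp from one.

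Introns had the highest BRG1-only share of the annotated places. Of the 19288 BRG1 intron peaks under 3000 bp, 15907 met neither other list (82.5%, 81.9 to 83.0), against 77.1% of distal, 69.9% of exon and 38.8% of promoter peaks. They made up 48.3% of all BRG1-only peaks under that width. Of the 3381 intron peaks that met another list, 3051 met BRM alone, 287 both and 43 SNF5 alone, so that BRM decided nearly all of the split. The BRM list holds 22157 peaks and the SNF5 list 6489, against 51504 in the BRG1 list. The part of list size in the split was not tested. The overlap rule defines the members, so these shares are a description.

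The peaks were narrow. Their width was 331 to 2893 bp, with a median of 516 and quartiles at 389 and 770, and 47.6% were under 500 bp. Intron peaks that met another list had the same minimum of 331 bp, and whether this is a limit of the peak calls is not given. Their median was 1074 bp, and 55.7% of them reached 1 kb, against 12.3% of the BRG1-only ones. When intron peaks were split by width into 5 equal bins, the BRG1-only share fell from 96.5% in the narrowest (331 to 383 bp) to 51.0% in the widest (999 to 2996 bp). A wider peak has more bases that can meet another list, so width is tied to the rule that chose the members, and its part in the split was not tested.

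**Figure D2:**
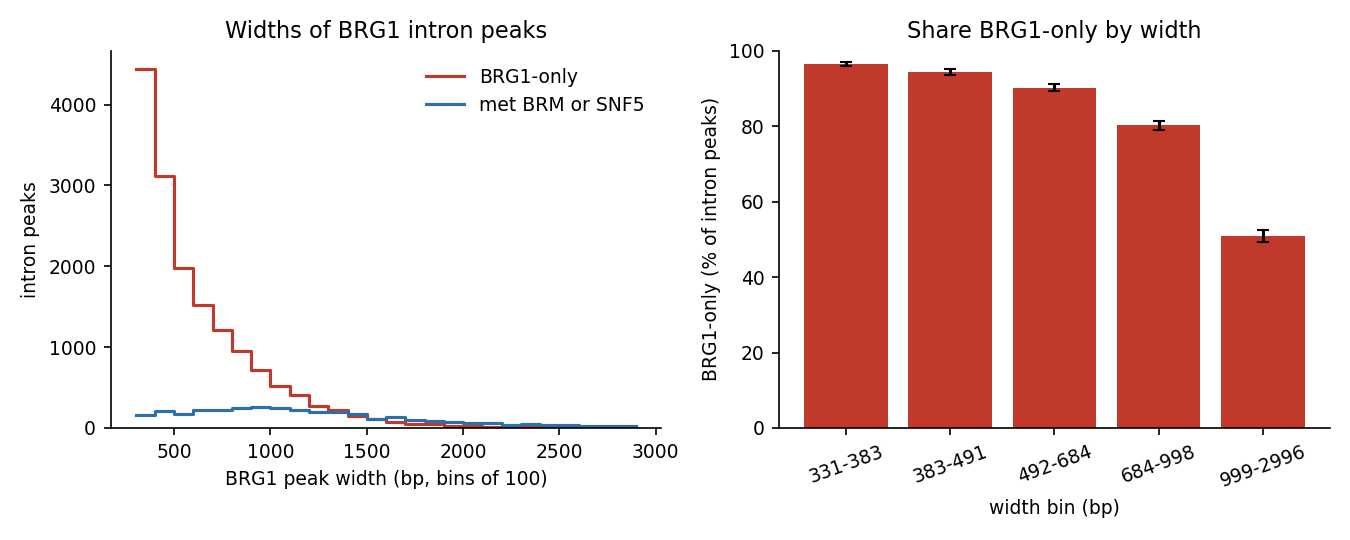
Left, number of BRG1 intron peaks (vertical axis) by width in bins of 100 bp; right, share of intron peaks that are BRG1-only in 5 width bins, with 95% exact binomial intervals. BRG1-only peaks crowd at the narrow end and their share falls from 96.5% to 51.0%.

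Of the 10 widest BRG1-only intron peaks, the first lay in TCF7L2, the WNT-pathway transcription factor of the TCF family, with 2893 bp (chr10:112957235-112960127), and a BRM peak 3465 bp away. A peak of 2843 bp on chromosome 5 (chr5:143493942-143496784) lay in no RefSeq gene span. DIP2B followed with 2840 bp, MAST4, a microtubule-associated kinase, with 2832 bp, CPEB3, a regulator of translation, with 2824 bp, and ARHGAP24, a GTPase-activating protein, with 2779 bp. MIR181A1HG, the host gene of a microRNA, had 2743 bp, B4GALT5, a galactosyltransferase, 2701 bp, NFIX, a transcription factor, 2697 bp, and KCNMA1, a potassium channel, 2685 bp. The peak of KCNMA1 lay 185485 bp from the nearest BRM peak and that of NFIX 1535 bp, so wide members occurred both near to and far from BRM. At the other end, the 3 narrowest listed first by position (331 bp each) lay in NADK, CFAP74 and TTC34. Just outside the width limit were 6 intron peaks that met neither list, in RND3 (3010 bp), EXT1 (3023 bp), MIR181A1HG (3107 bp), MED27 (3157 bp), IQGAP1 (3192 bp) and DNER (3498 bp).

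BRG1-only intron peaks lay farther from a transcription start site (TSS) than intron peaks that met another list, at every width. The median distance the authors give was 7877 bp (interval 7693 to 8050, quartiles 3142 and 18468), against 5664 bp (5348 to 5934). The nearest intron peaks of either kind lay 999 bp from a TSS, at the promoter limit of 1000 bp, so this minimum reflects the annotation. Beyond 50 kb lay 5.49% of BRG1-only and 3.52% of the other intron peaks, and the farthest BRG1-only peak lay 343952 bp away. In the narrowest width bin the medians were 7656 bp (7309 to 7998) and 3705 bp (3175 to 5175), and in the widest 8822 bp (8154 to 9504) and 5836 bp (5488 to 6261). The BRG1-only median was the longer in 20 of 23 chromosomes, the exceptions being 4, 18 and 22. Measured to the nearest RefSeq gene start that had a promoter window instead, outside chromosome 8, the medians were 22831 and 14767 bp. Some genes, such as PARD3, had no such window, so this set of starts is incomplete. Within single genes the difference was small: of 886 protein-coding genes of at least 50 kb that held both kinds, the BRG1-only peaks had the longer median distance in 470 (53.0%).

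They also had fewer BRG1 neighbours. Another BRG1 peak of any kind lay within 5 kb of 61.9% of BRG1-only intron peaks (61.1 to 62.7) and of 72.3% of intron peaks that met another list (70.7 to 73.8). The share was lower for BRG1-only peaks in all 5 width bins, for example 63.8% against 74.7% in the widest, and in 21 of 23 chromosomes, with 4 and 18 as exceptions. Distances to the other subunits ranged widely. The nearest BRM peak lay a median of 18427 bp away (quartiles 3860 and 62664) and the nearest SNF5 peak 105424 bp. Within 1 kb of a BRM or SNF5 peak lay 10.1% (9.67 to 10.6), and beyond 50 kb 28.9%. Within 200 bp lay 275 of the peaks (1.73%), and 2637 (16.6%) lay beyond 100 kb.

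**Figure D3:**
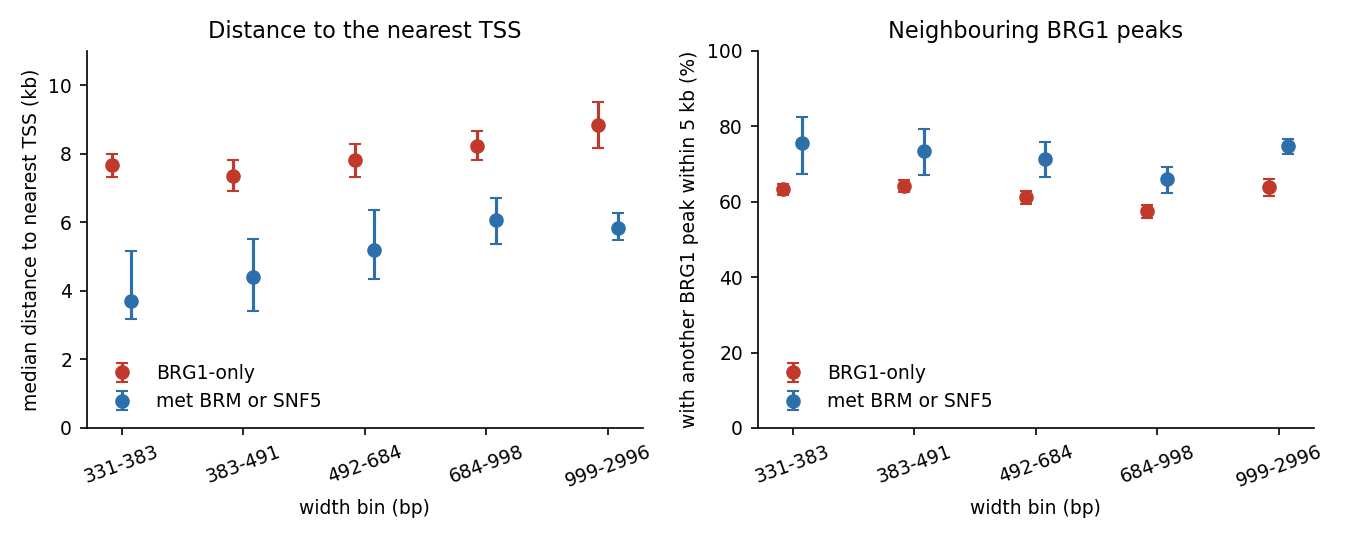
Median distance to the nearest TSS in kb (left) and percent of peaks with another BRG1 peak within 5 kb (right) in 5 width bins, for BRG1-only intron peaks and for intron peaks that met BRM or SNF5; lines are 95% intervals, from order statistics for the medians and exact binomial for the shares. In each bin the BRG1-only points lie higher on the left and lower on the right.

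Within genes, similar shares of both kinds lay near the start, and fewer of the BRG1-only peaks lay near the end. The strand of a gene was taken from its promoter window, so genes without one, such as PARD3, were left out. In the other protein-coding genes of at least 50 kb, 34.3% of 9211 BRG1-only intron peaks lay in the first 25% of the gene (33.3 to 35.2). Of 1665 intron peaks that met another list, 33.9% did (31.6 to 36.2). The first 10% of the gene held 16.5% and 16.0% of them. The last 25% held 15.6% of the BRG1-only peaks (14.9 to 16.4) and 18.9% of the others (17.0 to 20.8), and the last 10% held 4.93% (4.50 to 5.39) and 6.55% (5.41 to 7.84). The intervals for the first 25% overlap at each of the 5 widths.

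The peaks were spread over a large set of long genes. A RefSeq gene span held the midpoint of 93.3% of them, and a protein-coding span that of 83.5%. Of 19974 protein-coding genes, 4993 (25.0%) held at least 1, of which 2382 held 1, 1840 held 2 to 4, 577 held 5 to 9 and 194 held 10 or more. These 194 genes held 16.9% of all BRG1-only intron peaks. The median span was 79761 bp for genes that held one and 15816 bp for genes that held none, and the share with at least 1 rose from 2.07% of genes under 10 kb to 64.3% of genes over 200 kb. The gene the authors name as nearest TSS held the peak in 62.7% of cases (62.0 to 63.5). For 122 the name was a class of small RNA copies (Y_RNA or Metazoa_SRP).

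The 12 genes with the most peaks were long, with spans of 286 to 813 kb. CAST, the calpain inhibitor calpastatin, held 35 over a RefSeq span of 813 kb that also takes in PCSK1, and 12 of the 35 were named for CAST. PARD3, a protein of epithelial polarity, held 29, NAV2, a neuron navigator protein, 28, and MCC, a colorectal tumour suppressor candidate, 28, of which 25 were named for it. MACF1, which links actin and microtubules, held 26, as did AOPEP, an aminopeptidase. None of the 26 in AOPEP was named under this symbol, but synonyms were not searched for these counts of named peaks. IGF1R, the insulin-like growth factor receptor, held 25, ARHGAP26, a GTPase-activating protein, 24, and MAML2, a Notch coactivator, 22. The noncoding gene PVT1 held 22, and BCAR3, an adaptor of focal adhesions, and KCNMA1 held 21 each, as did PHLDB2, PDE4D, EFNA5 and EXT1. In the 12 genes from CAST to KCNMA1, intron peaks that met BRM or SNF5 numbered from 1 in MACF1 to 13 in AOPEP. The genes were chosen for their BRG1-only peaks, and 82.5% of all BRG1 intron peaks under 3000 bp were BRG1-only. The lower numbers of the other kind thus follow from the choice. Over all genes of more than 200 kb, the 90th percentile was 9 peaks.

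Per length, among genes of at least 50 kb, shorter ones led. PDLIM1, an actin-associated LIM protein, held 13 in 53.4 kb (24.3 per 100 kb), where genes of 50 to 100 kb averaged 1.39 per 100 kb. TSPAN14, a tetraspanin, held 12 (17.6 per 100 kb), IFFO2, an intermediate filament family member, 9 (17.2), BICD2, a dynein adaptor, 9 (16.8), and EZR, the membrane-actin linker ezrin, 9 (16.8). PPTC7, a mitochondrial phosphatase, had 16.0 per 100 kb, ITGA6, the integrin chain of hemidesmosomes, 15.2 and TMEM51 14.7. Each of these 8 genes also held 1 to 6 BRG1 peaks that met BRM or SNF5.

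**Figure D4:**
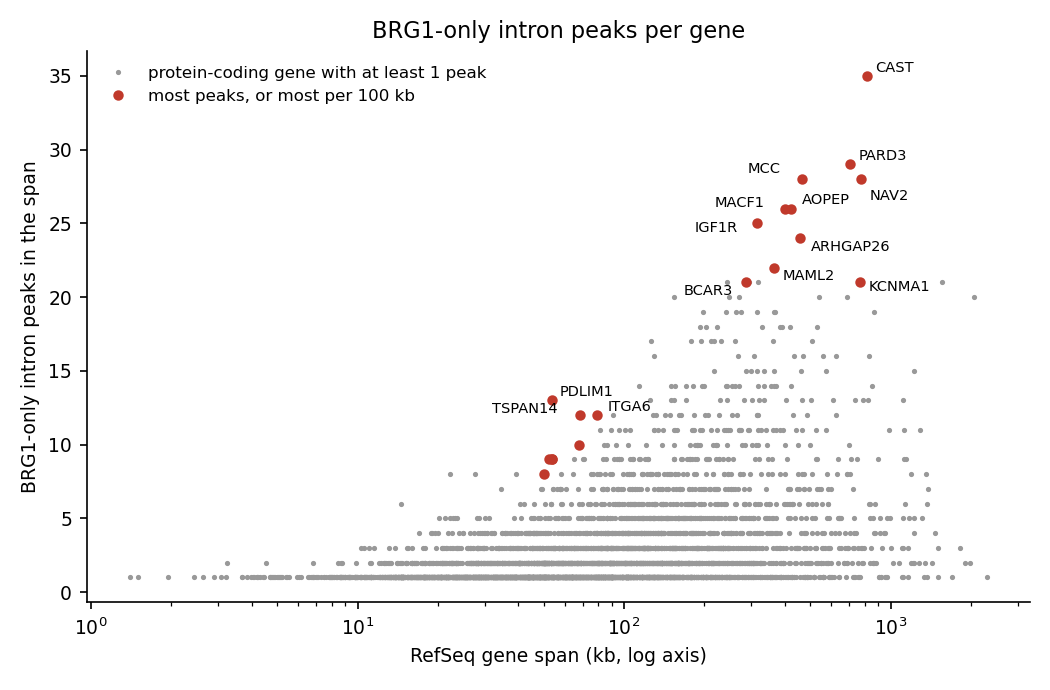
Number of BRG1-only intron peaks in each protein-coding gene (vertical axis) against its RefSeq span in kb (log axis); grey points are genes that hold at least 1 and red points those with the most peaks or the most per 100 kb. CAST stands highest with 35, and PDLIM1 with 13 lies above other genes of its length.

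Some genes held many BRG1-only intron peaks and, within their RefSeq span, no BRG1 peak that met another list. THADA held 19 in 365 kb, FTO, an RNA demethylase, 18 in 418 kb, and SIK3, a salt-inducible kinase, 14 in 255 kb. The noncoding gene LOC105370777 held 15, and ADGRV1, an adhesion receptor, 13. ADGRV1 had 1 BRM peak in its span, and a BRG1 promoter peak named for it, with its midpoint outside the span, met another list. THADA and FTO each had just 1 further BRG1 peak. Of the 4993 protein-coding genes that held a BRG1-only intron peak, 1443 held no BRG1 peak that met BRM or SNF5 in their span. No like count is given for the other genes, so this number is a description only.

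The runs with the most peaks within 20 kb lay in ITGA6 and MET, each with 10 BRG1-only intron peaks and no other BRG1 peak between them. In ITGA6 they ran over 17845 bp (chr2:172446934-172464778), from 19.9 to 36.9 kb after the gene start, with widths of 331 to 1183 bp. A BRG1 promoter peak of 3920 bp that met another list was centred 2.01 kb after the start, 2 more BRG1-only peaks lay at 9.72 and 12.3 kb, and the only other peak, of 1290 bp at 15.0 kb, met another list. None of the 12 was named for ITGA6, and the nearest TSS given by the authors was that of AC078883.2 or AC078883.3. In MET, the receptor of hepatocyte growth factor, the run covered 18616 bp (chr7:116675023-116693638), from 3.01 to 20.7 kb after the start, next to a promoter peak of 3794 bp that met another list. MET held 17 BRG1-only intron peaks in all, the last at 109 kb, and 1 other intron peak, of 783 bp at 44.7 kb, met another list. Runs followed in GNAI1, an inhibitory G protein subunit, with 9 in 17177 bp, AK4, a mitochondrial adenylate kinase, with 8 in 15955 bp, and WLS, the carrier that secretes WNT ligands, with 8 in 13030 bp. No BRG1 peak that met another list lay inside any of these 5 runs.

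EGFR and TP63 showed other patterns. In EGFR, the epidermal growth factor receptor, 18 BRG1-only intron peaks (331 to 1579 bp) lay from 5.38 to 112 kb after the start, among 9 BRG1 peaks that met another list (487 to 3543 bp) and lay from 2.26 to 167 kb. In TP63, the transcription factor of basal epithelial identity, which has an internal promoter for its N-terminally shortened form, no BRG1 peak lay before 170 kb. Its 15 BRG1-only peaks lay from 170 to 266 kb after the outer start, with widths of 331 to 2072 bp, and 1 further peak of 2595 bp met another list. The 7 nearest the start were named for TP63, and 8 for MIR944, a microRNA inside the gene.

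**Figure D5:**
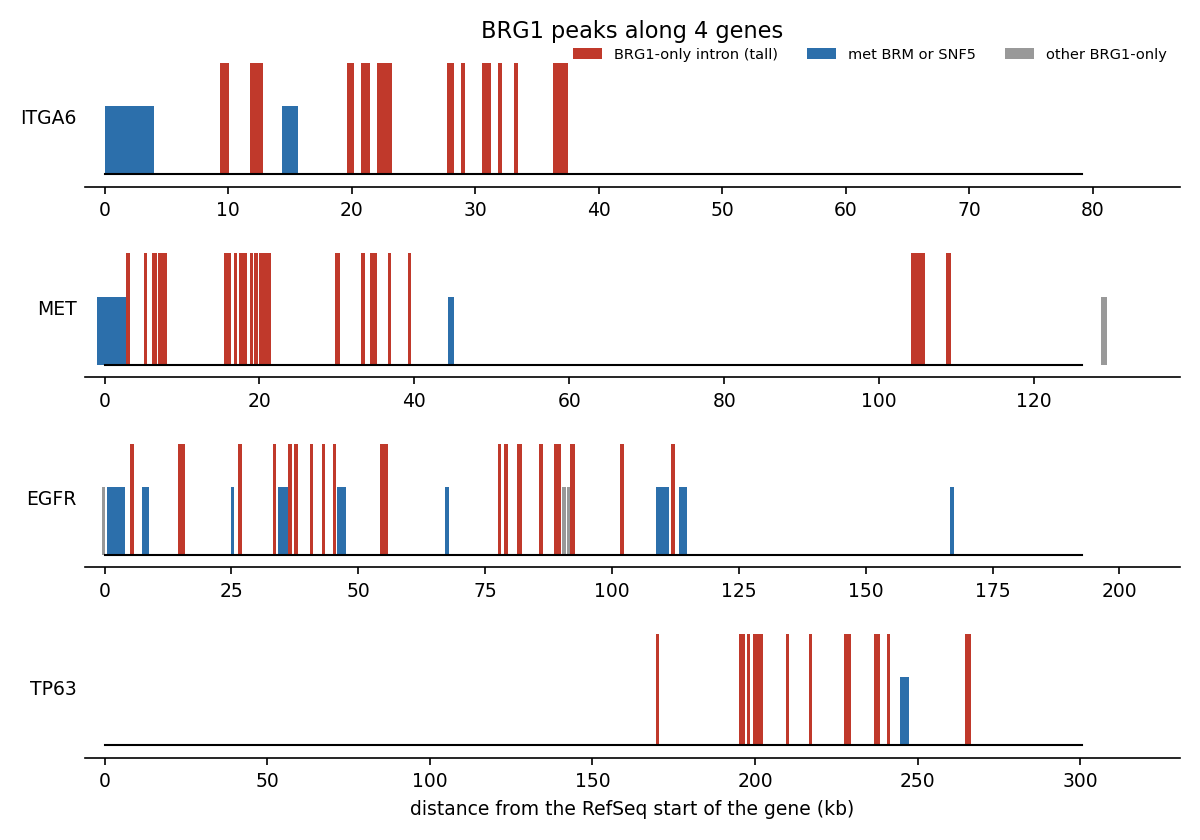
BRG1 peaks along ITGA6, MET, EGFR and TP63 by distance from the RefSeq start of the gene in kb; tall red bars are BRG1-only intron peaks, short blue bars BRG1 peaks that met BRM or SNF5, short grey bars other BRG1-only peaks, and the black line is the gene. Bars show peak width, with narrow peaks drawn at a minimum width. The ITGA6 and MET peaks gather after the start, while those of TP63 begin at 170 kb.

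Genes that hold BRG1-only intron peaks more often had a BRG1 promoter peak than genes of like length without. Among genes of 50 to 100 kb, a BRG1 promoter peak named 80.8% of the holders and 58.2% of the others, and one that met BRM or SNF5 named 67.4% and 41.5%. Among genes over 200 kb the values were 77.1% against 43.0%, and 58.5% against 24.3%. The order was the same in all 6 length bins. Expression was not measured in these files, and whether it moved with both was not tested.

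Lists of genes were set beside the 25.0% of all protein-coding genes that held a BRG1-only intron peak and the mean of 1.05 such peaks per 100 kb of span. The lists differ in gene length, so the value per 100 kb is given with the counts, and some genes stand in more than 1 list. Genes of integrins and focal adhesions, which anchor cells to the matrix, held the most: 20 of 26 held at least 1 (76.9%, 56.4 to 91.0), 129 in all (3.39 per 100 kb). TNS3, a tensin, held 16, LPP 13, ITGA6 12, ITGA2, a collagen receptor chain, 11 and ACTN4, an actin crosslinker, 10, while FERMT1, ITGA3 and ITGA5 held none. Of 24 Hippo effectors and YAP targets, 16 held 88 (3.52 per 100 kb). TEAD1, the DNA-binding partner of YAP, held 20, AMOTL1 13, STK4, the kinase MST1, 9, YAP1 itself 9 and MYOF 7, and the short target genes ANKRD1 and CCN1 held none, nor did AXL.

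Of 22 basal epithelial genes, 11 held 73 (4.00 per 100 kb), the highest density of the 13 lists. EGFR held 18, TP63 15, ITGA6 12, DST, a hemidesmosomal linker, 10 and LAMB3, a laminin chain, 4 in 37.6 kb. CAV1, COL17A1 and DSG3 held none, and neither did KRT5, KRT14 and ITGB4, named above as defining basal genes. EGFR and ITGA6 also stand in other lists, so the density rests in part on a few genes with many peaks. By the gene the authors name, 7 of the 22 were counted. Of 20 luminal and androgen axis genes, 6 held 32 (2.74 per 100 kb), with 11 in FKBP5, an androgen- and glucocorticoid-induced chaperone partner, 8 in ELL2, an elongation factor, 6 in ABCC4 and 3 each in PMEPA1 and TRPM8. ACP3 and FOXA1 held none.

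Signalling pathways held fewer per length than the adhesion and Hippo lists. TGF-beta and SMAD genes held 52 in 15 of 24 genes (1.98 per 100 kb), led by SMAD3, the signal-transducing SMAD, with 11 and SMURF1, a ubiquitin ligase, with 8. ACVR1 and TGFBR3, receptors, held 5 each and SMURF2 4, and ACVR2A, LTBP1 and SMAD2 held none. WNT pathway genes held 47 in 12 of 27 (2.05 per 100 kb), with 15 in TCF7L2, 6 in ROR1, 5 in TCF7L1, 4 in the coreceptor LRP5 and 3 in ROR2, and none in AXIN2, CTNNB1 or FZD1. The EGFR family and its ligands held 47 in 10 of 17 (1.08 per 100 kb). ERRFI1, a feedback inhibitor of EGFR, held 6 in 14.6 kb (41.1 per 100 kb), TGFA, a ligand, 5, LRIG3 and NRG2 4 each, and the ligands BTC and EPGN and the receptor ERBB3 none. Genes of epithelial-mesenchymal transition held 22 in 7 of 19, with 10 in CD44, the hyaluronan receptor, 6 in CDH1, E-cadherin, and 2 in TGFBI, and none in CDH2, COL1A1 or COL3A1. FN1, fibronectin, and SNAI2 held 1 each.

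The AP-1 genes themselves, which are short, held 10 in 4 of 19 genes (1.17 per 100 kb), 5 of them in ATF3, a stress-induced member, 3 in ATF7 and 1 each in FOSL2 and JDP2. ATF2, BATF and BATF2 held none. With the wider members alone, 2 of the 19 held one. SWI/SNF subunit genes held 41 in 12 of 29 (1.71 per 100 kb), led by ARID1B with 16, BICRA with 7 and ARID1A with 5. BCL7A and BICRAL held 2 each, as did SMARCA4, and SMARCA2, SMARCB1, ACTB, ACTL6A and ACTL6B held none. The genomic locus of SCHLAP1 held 2, of 360 and 468 bp, neither of them named for it. The 5 BRG1-only intron peaks that were named for it had their midpoints outside its RefSeq span. The construct came on a lentivirus, and whether reads from it add to peaks at the locus was not tested.

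Over all protein-coding genes, 82.7% of BRG1 intron peaks under 3000 bp were BRG1-only, counting a peak once for each gene that holds it. The lowest shares among the 13 lists were those of the AP-1 genes (10 of 15 peaks, 66.7%, 38.4 to 88.2), WNT (73.4%, 60.9 to 83.7) and TGF-beta and SMAD genes (74.3%, 62.4 to 84.0), and each interval holds the value over all genes. Genes of a list are no replicates, and the lists were described without a test.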

How the data were processed

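Chromatin immunoprecipitation with sequencing was done in RWPE1 cells, per the labels' protocols. Per the submitters' processing notes, which state no roles, the tools were Bowtie2, SAMtools, MACS2 and deepTools 2.5.2, with coordinates on hg38. What threshold, input and filter the peak calls had, and whether replicates were pooled, is not given in the sources used here. Each of the deposited lists gives a peak's start, end, width and nearest TSS, per the file headers, with no score or count.

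Overlap was counted at a minimum of 1 bp. A gene held a peak when its RefSeq span (GRCh38.p14) held the midpoint, and a promoter peak was matched to a gene by the name the authors give. For position in the gene, and for ranking genes by number, each peak went to the longest such gene. Gene lists were matched by symbol or synonym, and all 13 were matched in full. No genome was used here, so the planned search for motifs in whole peaks was replaced by one in RefSeq promoter windows, chosen after seeing the files. Some named genes are not reported here. Members and lists were chosen with earlier results of these data known. Named were the 12 genes with most members, the 8 densest of at least 50 kb, and up to 5 members with most and 3 with no such peak in each list. Also named were the 10 widest and the narrowest peaks, the 6 just over the limit and the runs with most peaks within 20 kb. Genes with no BRG1 peak that met another list, and the subunit and SCHLAP1 genes, were named too. MET, EGFR, TP63, PDGFRA, SYT16, SRF and TET1 were shown in detail after their values were seen. Intervals came from scipy 1.17.1 and tables from pandas 2.3.3 with numpy 2.4.6, in Python 3.11.15, and plots from matplotlib 3.10.9. The routines were tested on simulated peaks. Alternatives were other overlap rules, width limits, gene assignments, distances and sets of peaks.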

Additional observations from a re-analysis of the deposited data

How the results depend on the processing

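No paired analysis was possible because each subunit has 1 deposited list, with no replicate values. Of 39 summary values under alternatives, 25 stayed within their interval or within 1.5 times the main count and 14 moved. The BRG1-only share of intron peaks was 74.1% when a BRM or SNF5 peak within 1 kb counted as met, 84.0% with a width limit of 2000 bp, 81.9% with no limit and 92.7% when the overlap had to cover 50% of the BRG1 peak. Counting a peak within 1 kb as met, the median distance to a TSS was 8695 bp (4269 bp for the intron peaks that then met another list), 57.8% had a BRG1 peak within 5 kb and 32.6% lay in the first 25% of the gene. With the wider members alone the median width was 769 bp, the distance 8198 bp and the neighbour share 60.1%. The distance was 22831 bp to RefSeq starts with a promoter window, without chromosome 8. A protein-coding span held 83.5%. Within 2 and 10 kb, 48.9% and 72.9% had a BRG1 neighbour. Only BRM peaks counted, and leaving out chromosomes 22 and X, where the SNF5 list holds 2 and 0 peaks, gave shares of 82.7% and 82.4%, both chosen after seeing the data. Of the 4993 genes, 4107 were also named by the authors for such a peak. In the single lists, 35 of 39 counts stayed within 1.5 times. With the gene the authors name, the basal count was 7 and the hepatocyte count 5. With wider members alone the AP-1 count was 2 and the neuronal count 4. The planned central 200 bp window needed a genome and was not run. Depth is unknown, so a missing BRM or SNF5 peak cannot be told from one below the call.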

Other observations

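Neuronal genes held few BRG1-only intron peaks for their length, and genes of blood cells and hepatocytes held about as many per length as all genes. Of 24 neuronal genes, 10 held 28 such peaks over 16.4 Mb (0.170 per 100 kb, against 1.05 over all protein-coding genes), and 3 intron peaks met BRM or SNF5. MAP2, a microtubule-associated protein, held 9, CTNNA2 4, SYT1, a synaptic gene, 3, CACNA1A 2, and CNTNAP2, DCX and CAMK2A none. Of 20 blood cell genes, 10 held 19 (1.35 per 100 kb) and none of their intron peaks under 3000 bp met another list (19 of 19, interval 82.4 to 100). FYB1, an adaptor of T cells, held 5, PTPRC, the pan-leukocyte phosphatase CD45, 4, IKZF3 and ITGAL 2 each and CD8A 1, and BLK and CD14 held none. The 4 peaks of PTPRC were all the BRG1 peaks in its span. Of 20 hepatocyte genes, 3 held 10 (1.03 per 100 kb), all 10 intron peaks being BRG1-only (69.2 to 100): 5 in ABCB11, the bile salt export pump, 4 in HNF4A and 1 in ABCC2, with none in AHSG, ALB and APOA1. In the neuronal genes 90.3% of the intron peaks were BRG1-only (74.2 to 98.0). Over all protein-coding genes it was 82.7%, which each of these 3 intervals holds. The lists were not tested.

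The BRG1-only share of intron peaks differed between chromosomes. It was lowest on chromosome 19 (66.5%, 62.4 to 70.5) and was 74.9% on both 17 and 20, and it was highest on X (94.0%, 86.7 to 98.0), 4 (93.4%, 91.5 to 95.0) and 18 (92.2%, 86.8 to 95.9). The SNF5 list has no peak on X and 2 on 22. The BRM list holds 84 peaks on X and 1524 on 19. The part of these numbers in the shares was not tested.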
